A study of Mus musculus with 32 samples.

Results

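The genes described are the metalloproteases of the extracellular matrix and cell surface and their inhibitors, taken by symbol. They are all genes named Mmp, Adam, Adamts or Adamtsl followed by a number, Timp1 to Timp4, and Ctsk, a collagen-degrading cysteine protease. The rule gave 85 of the 43035 genes in the tables, namely 23 Mmp, 33 Adam, 19 Adamts, 5 Adamtsl and 4 Timp genes and Ctsk. The rule reads symbols and no expression value, but the gene set itself was proposed with results of these data known. Of the 85, 8 had no count in any library (Adam20, Adam24, Adam25, Adam26a, Adam26b, Adam39, Adam6a and Mmp7), and Mmp1a is annotated as a polymorphic pseudogene.

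Matrix metalloproteases (Mmps) are zinc enzymes that are made as inactive precursors and cut collagens, gelatin, proteoglycans and other proteases. Most are secreted, and the membrane-type Mmps are anchored to the cell surface. The 4 tissue inhibitors of metalloproteases (Timps) bind the active site, and Timp2 also takes part, together with Mmp14, in the activation of Mmp2. Adam proteases sit in the plasma membrane and release growth factors, cytokines and receptors from it. Adamts proteases are secreted and cut proteoglycans or the propeptides of collagen, and the Adamts-like proteins resemble them but have no protease domain. In skeletal muscle these genes are known mainly from fibro-adipogenic progenitors (FAPs, stromal cells between the fibres), vessel cells and leukocytes, and from the rebuilding of the matrix during repair and fibrosis.

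RNA was measured in 32 libraries from mice labelled with DUX4 as the inducible gene and from wild-type (WT) mice, all fed doxycycline chow, WT included. DUX4 is a transcription factor of the early embryo, and its activity in muscle causes facioscapulohumeral dystrophy. Whole muscle gave 5 IDUX.2Weeks and 5 WT.2Weeks libraries, and 4 IDUX.16Weeks and 4 WT.16Weeks libraries. Cells of hind limb muscle sorted on CD31 (endothelial cells) gave 4 CD31DUX and 3 CD31WT libraries, and cells sorted on PDGFRa (FAPs) gave 4 PDGDUX and 3 PDGWT libraries, each from 75000 cells. The promoter that drives DUX4, the cells that express it, the age and sex of the mice, and the time point of the sorted cells were not stated in the labels used here. Nor do these tell whether the libraries of a group are different mice, so that p-values measure only the spread between these libraries, which may be technical. DUX4 itself is not analysed here, so that groups are named by their labels.

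Library totals ran from 6071276 to 20666816 counts, so that a count of 0 allowed up to 0.494 CPM (counts per 1000000) in the shallowest library and 0.145 CPM in the deepest, at 3 counts and for counting error only. The sorts carried their markers: Pecam1, which encodes CD31, averaged 1243 CPM in CD31WT and 44.8 CPM in PDGWT, and Pdgfra averaged 921 CPM in PDGWT and 46.0 CPM in CD31WT. Several libraries stood apart from their group. WT.16Weeks replicate 1 had a summed level of 8 FAP markers of 128 CPM against 397 to 478 CPM in the other 3, and a summed level of 8 macrophage markers of 174 CPM against 26.1 to 33.2 CPM. CD31WT replicate 1 and PDGWT replicate 3 had higher macrophage marker sums than the rest of their groups (671 CPM against 77.6 and 133 CPM, and 127 CPM against 13.4 and 24.9 CPM). The 2-week muscle libraries fell into 2 sets, replicates 1 to 3 and replicates 4 and 5, and the summed FAP markers were 807 to 1198 CPM in the first set of WT.2Weeks and 466 and 515 CPM in the second.

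Of the 23 Mmp genes, 10 lie in a single stretch of 427.1 kb on chromosome 9, from 7272514 to 7699585 (GRCm38). In order they are Mmp13, Mmp12, Mmp1b, Mmp3, Mmp1a, Mmp10, Mmp8, Mmp27, Mmp20 and Mmp7, which encode collagenases, stromelysins, metalloelastase, matrilysin and enamelysin. Only Mmp3 and Mmp12 of this stretch exceeded 6 CPM on average in any group. Promoter sequences from RefSeq (GRCm38.p6) were matched to 54 of the 85 members by symbol. Within the 250 bases before the start, the letters TGANTCA, the motif of the AP-1 transcription factors, were found on either strand in 12 of the 54 members (22.2%) and in 7.82% of 27025 genes. They were present at 8 of the 10 genes of the chromosome 9 stretch and at 4 of the other 44 members in the table. TATAAA was found in 13 of the 54 members (24.1%) and in 14.3% of the genes. The 120 bases that end at the base before the RefSeq start follow for 4 genes of the stretch whose levels differed widely, 5′ to 3′ on the plus strand, with the AP-1 motif in capitals.
Mmp13, chr9:7272394-7272513: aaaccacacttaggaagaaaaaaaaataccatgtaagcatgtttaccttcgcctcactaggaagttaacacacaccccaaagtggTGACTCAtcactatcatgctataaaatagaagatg
Mmp12, chr9:7347254-7347373: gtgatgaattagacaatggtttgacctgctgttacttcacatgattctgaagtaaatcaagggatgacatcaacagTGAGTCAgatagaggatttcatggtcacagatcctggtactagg
Mmp3, chr9:7445702-7445821: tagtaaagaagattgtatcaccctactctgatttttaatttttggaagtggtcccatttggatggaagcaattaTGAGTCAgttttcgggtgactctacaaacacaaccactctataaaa
Mmp10, chr9:7502222-7502341: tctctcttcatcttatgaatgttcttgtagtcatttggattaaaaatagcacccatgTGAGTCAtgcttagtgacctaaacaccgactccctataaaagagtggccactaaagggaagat
The motif begins 35 bases before the start in Mmp13, 44 in Mmp12, 46 in Mmp3 and 63 in Mmp10. The letters are a description of the sequence, and binding was not measured. The Mmp12 stretch lies inside the longer gene model of the GENCODE annotation. Another RefSeq start of Mmp12 lies further upstream, and the 250 bases before it (chr9:7344147-7344396) hold no AP-1 motif.

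Although these 4 promoters share the motif, the genes differed in level. Mmp13 averaged at most 0.854 CPM (CD31DUX) and Mmp10 at most 0.642 CPM (IDUX.2Weeks), while Mmp3 averaged 870.0 ± 378 CPM (SD, n = 4) in PDGDUX. Mmp10 was without a count in all 5 WT.2Weeks libraries and had a count in 4 of 5 IDUX.2Weeks libraries, with up to 2.41 CPM.

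Levels of different genes were compared as CPM per kilobase of exon. In whole muscle, Timp2 (21.5 in WT.2Weeks, 14.5 in WT.16Weeks) and Timp3 (17.9 and 15.4) led the members in WT.2Weeks, and Adam9, a widely expressed sheddase, led in WT.16Weeks with 16.4 CPM per kilobase. In WT endothelial cells the proteoglycanases Adamts1 (494 CPM per kilobase) and Adamts4 (257) and the inhibitors Timp3 (269.9), Timp2 (158) and Timp4 (141) stood highest. In WT FAPs the order began with Timp2 (879 CPM per kilobase) and Mmp2 (866), followed by Adamts1 (422). Between 38 (WT.16Weeks) and 51 (CD31WT) of the 85 members averaged at least 1 CPM in a group. Whole-muscle and sorted-cell libraries were made with different kits, so that levels were set side by side across the 2 kinds of library but not tested.

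**Figure D1:**
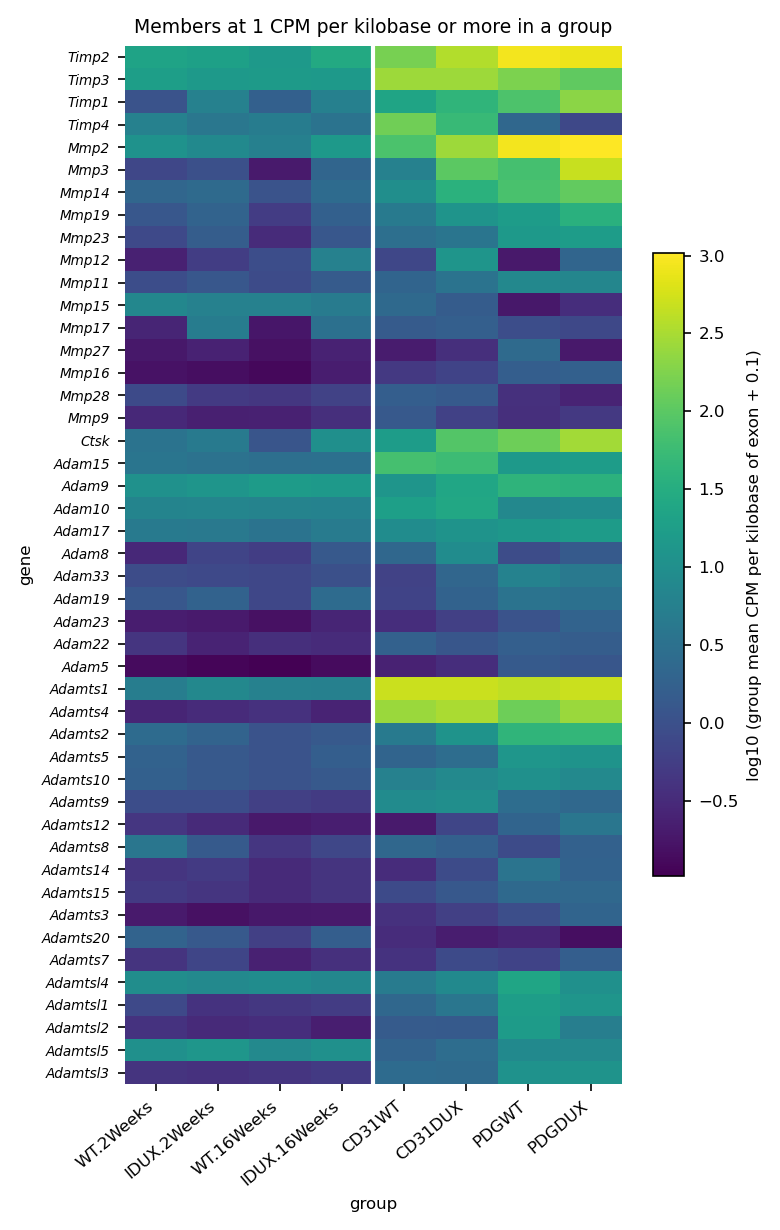
Mean level of the 46 members that reached 1 CPM per kilobase of exon in at least 1 group, one row per gene and one column per group, as log10 of the mean plus 0.1; the white line parts whole muscle (left) from sorted cells (right). Timp2, Mmp2 and Adamts1 are bright in the sorted cells, Timp4 is bright in the CD31 columns, and Mmp15 is brightest in whole muscle.

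Each comparison below gives levels in CPM and differences as log2 of DUX4 over WT ± SE from edgeR's quasi-likelihood test, with Benjamini-Hochberg adjustment of p over all genes tested. Genes are said to be called, or to have risen or fallen, where the adjusted p was under 0.05. Of the 85 members, 49 had counts enough to be tested in whole muscle and 60 in the sorted cells. In whole muscle at 2 weeks 3 members were called higher and 2 lower with DUX4 (6.12% and 4.08% of the 49), against 11.2% and 6.47% of all genes. At 16 weeks 15 members were called higher (30.6%) and none lower, against 14.1% and 12.5% of all genes. The median log2 difference of the tested members was -0.15 at 2 weeks and 0.59 at 16 weeks, where that of all genes was -0.01 and 0.01. None of the members had an unadjusted p under 0.05 in the lower direction at 16 weeks. DESeq2 also called none lower there, and limma voom called 2, Mmp15 and Adamts6.

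In CD31-sorted cells 13 members were called higher and 1 lower with DUX4 (21.7% and 1.67% of 60), against 3.72% and 1.35% of all genes. In PDGFRa-sorted cells 3 were called higher and 2 lower (5.0% and 3.33%), against 1.23% and 1.77% of all genes. Their median log2 differences were 0.49 and -0.01, against -0.0046 and -0.07 for all genes. Of the 15 members higher in muscle at 16 weeks, 8 were also among the 13 higher in CD31-sorted cells (53.3% of the 15 and 61.5% of the 13). Over all 14254 genes tested in both, 205 were called higher in both, 10.4% of the 1970 called higher at 16 weeks and 34.9% of the 588 called higher in CD31-sorted cells. The 8 members were Mmp2, Mmp3, Mmp14, Mmp19, Timp2, Ctsk, Adam19 and Adam23. Mmp3 and Ctsk were the 2 members called higher in muscle at 16 weeks, in CD31-sorted cells and in FAPs.

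**Figure D2:**
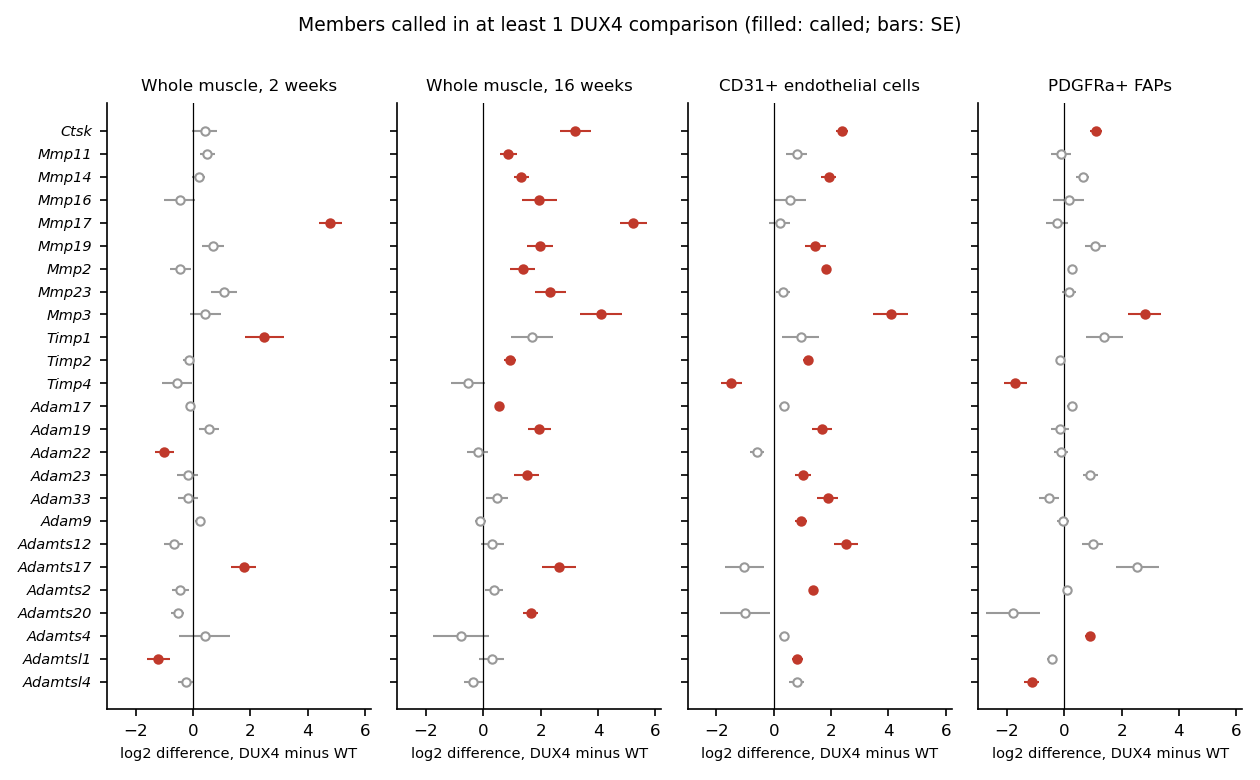
Log2 difference of DUX4 minus WT for the 25 members called in at least 1 of the 4 DUX4 comparisons, one panel per comparison; points are estimates, bars are SE, and filled points passed an adjusted p of 0.05. Mmp17 is far to the right in both whole-muscle panels and near 0 in both sorted-cell panels, and Timp4 is filled on the left in both sorted-cell panels.

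Cell type markers moved with these groups. In whole muscle at 16 weeks the summed FAP markers were 598 to 1000.3 CPM in IDUX.16Weeks and 128 to 478 CPM in WT.16Weeks, with 2 of the 8 markers called higher. The summed macrophage markers were 74.7 to 184 CPM and 26.1 to 174 CPM, with 2 of 8 called higher. The 8 muscle fibre markers summed to 52202 to 79787 CPM and 102340.0 to 128210.0 CPM, with 3 called lower. No marker of these 3 lists was at 0 in a whole group there. At 2 weeks none of the 8 FAP markers was called, 2 macrophage markers were called higher and 5 fibre markers lower. The part of these cell types in the differences below was not tested, and in bulk RNA a change in the number of cells of a type and a change in RNA per cell cannot be told apart.

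In CD31-sorted cells, 5 of the 8 FAP markers were called higher with DUX4 (Lum, Dcn, Dpt, Pdgfra and Col1a2) and none lower. At an unadjusted p under 0.05, 6 were higher and 1 was lower, so that not all moved the same way. The summed level of all 8 was 8448 to 10629 CPM in CD31DUX against 3773 to 5814 CPM in CD31WT. That sum was 11.7% of the PDGWT level in CD31WT and 24.5% in CD31DUX, a ratio of 2.10. The 8 endothelial markers summed to 3164 to 3791 CPM in CD31DUX and 4663 to 5027 CPM in CD31WT, with none called by edgeR (0 higher and 3 lower at an unadjusted p under 0.05). The macrophage markers summed to 546 to 1126 CPM and 77.6 to 671 CPM, with none called by edgeR (2 higher and 0 lower at an unadjusted p under 0.05). No marker of these 3 lists was at 0 in a whole group. In PDGFRa-sorted cells the FAP markers summed to 42737 to 46421 CPM in PDGDUX and 35505 to 42489 CPM in PDGWT, with 1 called higher (Lum), and 3 endothelial markers were called lower. Satellite cell and myoblast markers, 8 in all, were called higher in 4 cases at 2 weeks, 6 at 16 weeks, 1 in CD31-sorted cells and none in FAPs. Their sum was lower with DUX4 in both sorts, without overlap. It was 122 to 150 CPM in CD31WT and 58.0 to 101 CPM in CD31DUX, and 18.5 to 24.4 CPM in PDGWT and 6.17 to 15.2 CPM in PDGDUX. Of 5 tendon markers Thbs4 was called higher in all 4 comparisons, and the calls of the others are not given here. The 5 summed to 1091 to 1243 CPM in CD31WT and 1759 to 2832 CPM in CD31DUX. They summed to 717 to 1062 CPM in PDGWT and 2287.5 to 2735 CPM in PDGDUX. In muscle the sums were 41.9 to 79.8 CPM in WT.16Weeks and 199 to 370 CPM in IDUX.16Weeks. At 2 weeks they overlapped (34.1 to 95.4 CPM in WT.2Weeks and 72.5 to 142 CPM in IDUX.2Weeks). Of 8 mural cell markers 2 fell at 2 weeks and 1 at 16 weeks, and in each sort Pdgfrb rose while Acta2 and Myh11 fell. The neutrophil and fat cell lists held no called marker in the 4 comparisons, and the bone, Schwann and T and B cell lists held at most 2 in any of them.

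Among the gelatinases, Mmp2 rose with DUX4 in muscle at 16 weeks and in CD31-sorted cells, and Mmp9 passed the test in none of the 4 comparisons. Mmp2 (gelatinase A, chromosome 8, 92827291 to 92853420) degrades denatured collagen and basement membrane collagen. At 16 weeks it stood at 6.71, 24.7, 22.8 and 23.0 CPM in WT.16Weeks and at 55.9, 38.7, 34.5 and 68.8 CPM in IDUX.16Weeks, so that all DUX4 libraries were above all WT libraries. The difference was 1.37 ± 0.43 (adjusted p = 0.026). The call was lost without IDUX.16Weeks replicate 1, IDUX.16Weeks replicate 4 or WT.16Weeks replicate 1 (adjusted p = 0.059, 0.0788 and 0.0566). At 2 weeks Mmp2 ranged over 19.1 to 68.7 CPM in WT.2Weeks and 15.1 to 34.8 CPM in IDUX.2Weeks, and the groups overlapped (log2 difference -0.43 ± 0.38, adjusted p = 0.473).

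In the sorted cells Mmp2 stood at 289, 277 and 211 CPM in CD31WT and at 852, 943, 909 and 974 CPM in CD31DUX. The groups did not overlap, and the difference was 1.83 ± 0.14 (adjusted p = 1.72e-06). FAPs held 3006, 3261 and 2493 CPM in PDGWT and 3568, 3488, 3671 and 3234 CPM in PDGDUX. These overlapped, with a difference of 0.26 ± 0.13 (adjusted p = 0.382). Mmp2 in CD31WT was 8.88% of its PDGWT level, and in CD31DUX it was 31.5% of the PDGWT level and 26.4% of the PDGDUX level. Mmp9 (gelatinase B, known from neutrophils and macrophages) was low throughout, at 4.54 ± 4.11 CPM (SD, n = 3) in CD31WT, where it was highest. Its log2 differences were -0.52 ± 0.74, 0.90 ± 0.81, -1.31 ± 0.87 and 0.51 ± 0.92 at 2 weeks, at 16 weeks, in CD31-sorted cells and in FAPs, with adjusted p of 0.683, 0.442, 0.484 and 0.87. CD31WT replicate 1, with the highest macrophage and neutrophil marker sums of its group, also held the most Mmp9 there (9.08, 3.47 and 1.06 CPM). The sums of CD31WT replicates 1 to 3 were 671, 77.6 and 133 CPM for macrophages and 126, 6.55 and 31.3 CPM for neutrophils. CD31DUX held 1.39 to 2.79 CPM of Mmp9 with macrophage sums of 546 to 1126 CPM. The part of these cells in the Mmp9 levels was not tested.

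Mmp3 (stromelysin-1, chromosome 9, 7445822 to 7455975), whose promoter is shown above, cuts proteoglycans and activates other Mmps. It was called higher with DUX4 in muscle at 16 weeks, in CD31-sorted cells and in FAPs. In muscle it stood at 0.326, 0.233, 0.170 and 0 CPM in WT.16Weeks and at 4.52, 1.37, 3.62 and 4.91 CPM in IDUX.16Weeks, with no overlap and a difference of 4.10 ± 0.73 (adjusted p = 0.00076). At 2 weeks the values were 3.10, 1.19, 0.643, 0.473 and 0.377 CPM in WT.2Weeks and 2.16, 2.44, 1.65, 0.774 and 0.829 CPM in IDUX.2Weeks, which overlapped (log2 difference 0.44 ± 0.55, adjusted p = 0.635).

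Among sorted cells Mmp3 rose in both types. CD31WT held 17.7, 10.9 and 3.55 CPM and CD31DUX 120.2, 185, 189 and 235 CPM, a difference of 4.08 ± 0.61 (adjusted p = 0.00156). PDGWT held 77.4, 80.3 and 217 CPM and PDGDUX 568, 606, 919 and 1386 CPM, a difference of 2.8 ± 0.56 (adjusted p = 0.0191). All DUX4 libraries exceeded all WT libraries of the same sort. PDGWT replicate 3 was the highest of the WT FAP libraries, and the FAP call was lost without PDGWT replicate 1 or PDGWT replicate 2 (adjusted p = 0.0916 and 0.0853). The CD31DUX level was 17 times that of CD31WT, where the FAP marker sum had a ratio of 2.10. Beside the FAP marker sum, CD31DUX held 21% of the PDGDUX level of Mmp3 and 21.6% of that of the marker sum, and CD31WT held 8.58% of the PDGWT level of Mmp3 and 11.7% of that of the marker sum. The difference of the DUX4 effect on Mmp3 between FAPs and endothelial cells was -1.28 ± 0.73 (adjusted p = 0.495) and did not pass the test.

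The other stromelysins and the collagenases were low. Mmp11 (stromelysin-3) rose in muscle at 16 weeks from 1.30, 3.5, 1.98 and 1.68 CPM in WT.16Weeks to 4.29, 3.20, 3.43 and 4.52 CPM in IDUX.16Weeks, a difference of 0.87 ± 0.30 (adjusted p = 0.0415), with overlap between the groups. That call was lost when any of 9 of 18 libraries was left out (adjusted p = 0.051 to 0.105). Of the 4 collagenases, Mmp1a, Mmp1b, Mmp8 and Mmp13, only Mmp13 passed the filter, in sorted cells, and it was not called. Mmp8, a collagenase of neutrophils, averaged at most 0.872 CPM (CD31WT). Mmp27, of the same chromosome 9 stretch, stood at 9.03, 4.20 and 2.97 CPM in PDGWT and 0, 0.748, 0.0949 and 0 CPM in PDGDUX, without overlap. The difference of -4.69 ± 1.43 (adjusted p = 0.0973) did not pass edgeR's test, and DESeq2 and limma voom both called Mmp27 lower there. It was chosen after its values were seen.

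Mmp12 (macrophage metalloelastase) varied widely within groups. In IDUX.16Weeks it stood at 1.55, 0.915, 62.7 and 104 CPM and in WT.16Weeks at 22.0, 0.699, 0.680 and 0.673 CPM. The high values lay in 2 of the 4 DUX4 libraries and in WT.16Weeks replicate 1. CD31WT held 3.01, 10.3 and 0.414 CPM and CD31DUX 5.05, 93.2, 30.2 and 235 CPM, and PDGWT held 1.42, 0.203 and 0.385 CPM and PDGDUX 2.21, 10.1, 8.92 and 35.9 CPM. In FAPs all 4 DUX4 libraries were above all 3 WT libraries, and in CD31-sorted cells the groups overlapped. None of these differences passed the test (2.77 ± 1.27, adjusted p = 0.118 at 16 weeks, 4.31 ± 1.45, adjusted p = 0.131 in CD31-sorted cells and 4.40 ± 1.62, adjusted p = 0.215 in FAPs). DESeq2 called Mmp12 higher in both sorted cell types. The macrophage marker sum was 99.5 and 184 CPM in the 2 IDUX.16Weeks libraries with the high values. It was 74.7 and 91.9 CPM in the other 2. Not all libraries kept this order. IDUX.2Weeks replicates 1 to 3 had sums of 172 to 187 CPM with 4.11 to 5.76 CPM of Mmp12. CD31WT replicate 1 had a sum of 671 CPM with 3.01 CPM of Mmp12, and replicate 2 a sum of 77.6 CPM with 10.3 CPM. The part of macrophages in the Mmp12 levels was not tested.

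Of the membrane-type Mmps, Mmp17 was called higher in whole muscle at both times and in neither sorted cell type. Mmp17 (MT4-MMP, anchored by a glycolipid tail, chromosome 5, 129584169 to 129611099) stood at 0.817, 0.651, 1.10, 1.76 and 1.41 CPM in WT.2Weeks and at 34.2, 54.2, 22.7, 11.8 and 39.8 CPM in IDUX.2Weeks. At 16 weeks it stood at 0.195, 0.621, 0.680 and 0.673 CPM in WT.16Weeks and at 20.3, 15.1, 24.7 and 20.3 CPM in IDUX.16Weeks. Every DUX4 muscle library held more than 6 times as much as any WT muscle library of its time point. The differences were 4.79 ± 0.40 (adjusted p = 5.34e-07) at 2 weeks and 5.24 ± 0.48 (adjusted p = 4.99e-06) at 16 weeks, the ratio of the means was 28.3 and 37.0, and the test found no difference between the 2 effects (0.45 ± 0.60, adjusted p = 0.723). No fit that left out 1 library lost either call, and at 2 weeks replicates 4 and 5 alone did not pass (adjusted p = 0.138).

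In the sorted cells Mmp17 stood at 6.85, 11.2 and 8.81 CPM in CD31WT, 11.5, 9.01, 11.0 and 9.97 CPM in CD31DUX, 7.48, 5.76 and 2.8 CPM in PDGWT and 4.70, 5.13, 5.70 and 2.31 CPM in PDGDUX. The DUX4 and WT ranges overlapped in both sorts, with differences of 0.21 ± 0.37 (adjusted p = 0.838) and -0.26 ± 0.38 (adjusted p = 0.828). Whether the effect differs between muscle and sorted cells was not tested.

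Mmp14 (MT1-MMP, chromosome 14, 54431612 to 54445364), a collagenase of the cell surface that activates Mmp2, rose in muscle at 16 weeks and in CD31-sorted cells. It stood at 4.43, 6.99, 5.66 and 6.73 CPM in WT.16Weeks and 17.2, 13.1, 11.1 and 17.5 CPM in IDUX.16Weeks, without overlap, a difference of 1.32 ± 0.26 (adjusted p = 0.00171). At 2 weeks the ranges were 8.45 to 21.9 CPM in WT.2Weeks and 11.7 to 16.9 CPM in IDUX.2Weeks (0.21 ± 0.23, adjusted p = 0.584). WT.2Weeks replicate 1 set the upper end there, and without it Mmp14 was called (0.52, adjusted p = 0.0486).

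Among sorted cells Mmp14 stood at 70.1, 65.5 and 41.3 CPM in CD31WT and 129.8, 244, 263 and 249.7 CPM in CD31DUX, without overlap (1.91 ± 0.25, adjusted p = 0.000218). PDGWT held 441, 436 and 433 CPM and PDGDUX 461, 727, 773 and 757 CPM. Here too all DUX4 libraries were above all WT libraries, but the difference of 0.64 ± 0.24 (adjusted p = 0.196) did not pass the test. Replicate 1 was the lowest library of both DUX4 sorts. CD31WT held 13.5% of the PDGWT level of Mmp14 and CD31DUX 32.6% of the PDGDUX level.

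Mmp15 (MT2-MMP) showed the reverse order of cell types. It averaged 31.6 ± 7.44 (SD, n = 4) CPM in WT.16Weeks muscle, 12.7 ± 3.44 (SD, n = 3) CPM in CD31WT and 0.491 ± 0.326 (SD, n = 3) CPM in PDGWT. With DUX4 edgeR did not call it in any of the 4 comparisons, while limma voom called it lower in muscle at 2 weeks (-0.41, adjusted p = 0.0228) and at 16 weeks (-0.41, adjusted p = 0.0255). At 2 weeks it stood at 41.9, 31.2, 44.6, 40.5 and 36.5 CPM in WT.2Weeks and 26, 23.1, 32.3, 39.4 and 34.6 CPM in IDUX.2Weeks, and at 16 weeks at 20.6, 34.2, 35.1 and 36.7 and 26.5, 28.2, 20.9 and 26.7 CPM in the same order, with overlap at both times. The differences were -0.33 ± 0.17 (adjusted p = 0.192) and -0.31 ± 0.19 (adjusted p = 0.244). WT.16Weeks replicate 1 was the lowest library of its group, and without it the 16-week difference was called (-0.47, adjusted p = 0.043). In CD31-sorted cells the libraries of CD31DUX (6.98, 8.96, 8.80 and 6.27 CPM) lay below those of CD31WT (10.5, 16.7 and 10.9 CPM), a difference of -0.71 ± 0.61 (adjusted p = 0.613). In FAPs the levels were 0.124 to 0.745 and 0.0857 to 2.94 CPM (1.45 ± 0.73, adjusted p = 0.378).

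Mmp16 (MT3-MMP) rose in muscle at 16 weeks from 0.326, 0.466, 0.0566 and 0.168 CPM in WT.16Weeks to 0.942, 1.07, 0.890 and 1.16 CPM in IDUX.16Weeks (1.95 ± 0.62, adjusted p = 0.0272). The groups did not overlap, and the call was lost without IDUX.16Weeks replicate 4, WT.16Weeks replicate 3 or WT.16Weeks replicate 4 (adjusted p = 0.0629, 0.0832 and 0.0567). Mmp19 and Mmp23 also rose there. Mmp19, a secreted Mmp of vessel and connective tissue, stood at 2.48, 1.48, 0.566 and 1.51 CPM in WT.16Weeks and 5.42, 3.51, 7.05 and 7.41 CPM in IDUX.16Weeks (1.97 ± 0.46, adjusted p = 0.00472). Mmp23, a Mmp with an N-terminal membrane anchor, stood at 0.261, 0.466, 0.906 and 0.505 CPM in WT.16Weeks and 4.85, 1.98, 1.59 and 2.58 CPM in IDUX.16Weeks (2.34 ± 0.55, adjusted p = 0.00489). For both genes the lowest DUX4 library exceeded the highest WT library. In CD31-sorted cells Mmp19 rose from 28.4, 9.62 and 9.22 CPM in CD31WT to 33.8, 52.7, 48.0 and 37.1 CPM in CD31DUX (1.44 ± 0.37, adjusted p = 0.0332), again without overlap. That call was lost without CD31DUX replicate 2, CD31DUX replicate 3, CD31WT replicate 2 or CD31WT replicate 3 (adjusted p = 0.0753, 0.0744, 0.0975 and 0.142). In FAPs Mmp19 stood at 48.2, 44.3 and 83.5 CPM in PDGWT and 92.3, 128, 126 and 151 CPM in PDGDUX, without overlap. The difference of 1.08 ± 0.36 (adjusted p = 0.136) did not pass edgeR's test, and DESeq2 and limma voom both called it higher.

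**Figure D3:**
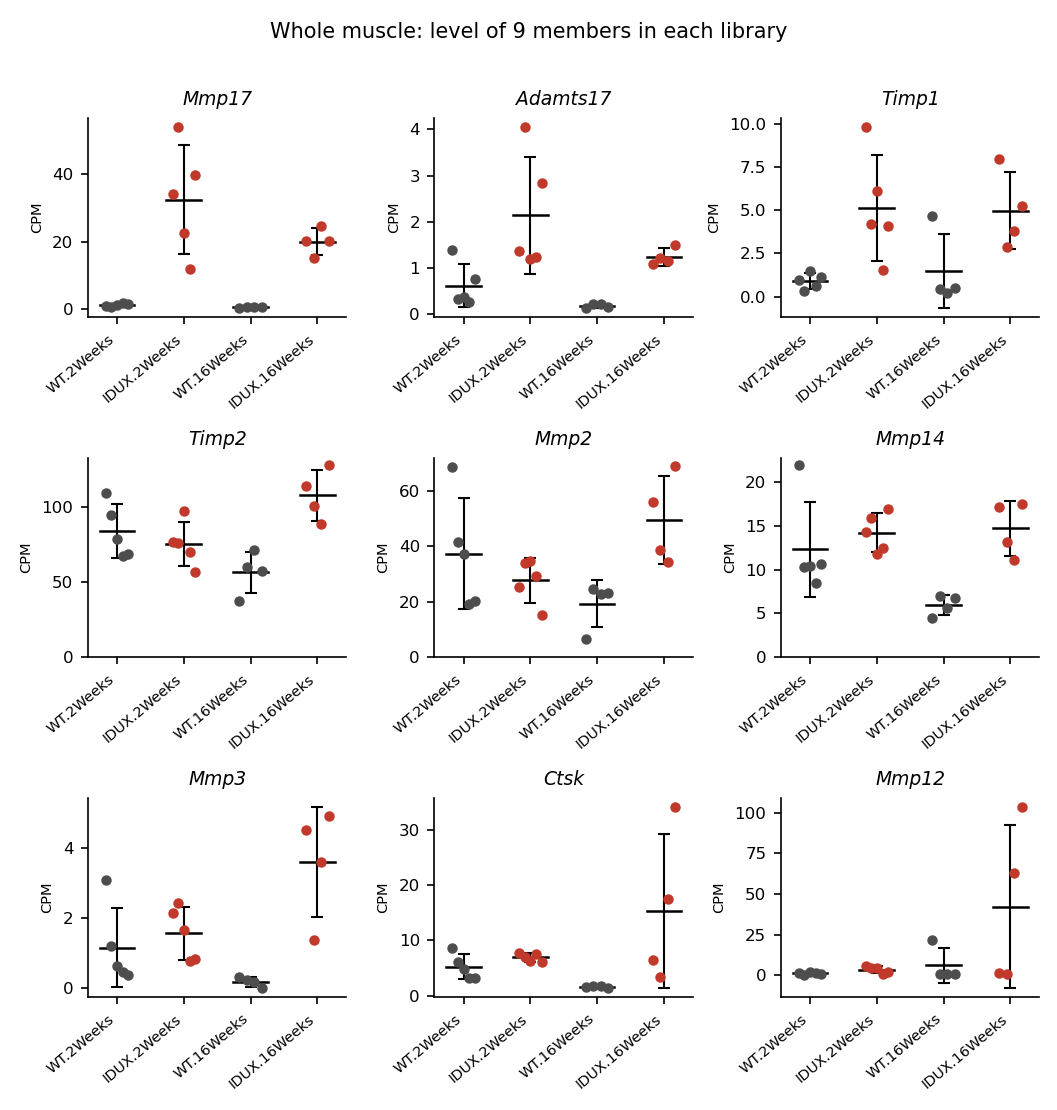
Level in CPM of 9 members in each of the 18 whole-muscle libraries by group, grey for WT and red for DUX4; points are libraries, horizontal bars are means and vertical bars are SD. Mmp17 is near 0 in all WT libraries and between 11.8 and 54.2 CPM in the DUX4 libraries, Timp1 and Mmp12 have 1 high WT.16Weeks library, and Mmp12 is high in 2 of 4 IDUX.16Weeks libraries.

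Among the inhibitors, Timp1 rose with DUX4 in muscle at 2 weeks, Timp2 in muscle at 16 weeks and in CD31-sorted cells, and Timp4 fell in both sorted cell types. Timp1 (chromosome X, 20870166 to 20874735), an inhibitor of most secreted Mmps that is induced in injury, stood at 0.980, 0.325, 1.47, 0.609 and 1.13 CPM in WT.2Weeks and 9.81, 4.17, 6.09, 1.55 and 4.08 CPM in IDUX.2Weeks. The groups did not overlap, and the difference was 2.50 ± 0.69 (adjusted p = 0.0196). The call was lost without IDUX.2Weeks replicate 1 (adjusted p = 0.0595) and with replicates 4 and 5 alone (1.70, adjusted p = 0.291). At 16 weeks the values were 4.69, 0.466, 0.227 and 0.505 CPM in WT.16Weeks and 7.96, 2.90, 3.81 and 5.21 CPM in IDUX.16Weeks. WT.16Weeks replicate 1 lay inside the DUX4 range and the other 3 WT libraries far below it. The difference by edgeR was 1.71 ± 0.73 (adjusted p = 0.0957) with all libraries and 3.71 (adjusted p = 0.000878) without WT.16Weeks replicate 1. Limma voom called Timp1 higher at 16 weeks with all libraries (3.83, adjusted p = 0.000783).

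In edgeR's test Timp1 in FAPs also depended on 1 WT library. PDGWT held 27.3, 21.7 and 162 CPM and PDGDUX 129, 138, 206 and 268 CPM, so that replicate 3 of PDGWT lay within the DUX4 range. The difference was 1.40 ± 0.65 (adjusted p = 0.349), and it was 2.91 (adjusted p = 0.00485) without that library. Limma voom called Timp1 higher in FAPs with all libraries (2.04, adjusted p = 0.0139). In CD31-sorted cells the levels of 30, 20.1 and 9.52 CPM in CD31WT and 26, 38.3, 36.5 and 51.9 CPM in CD31DUX overlapped (0.94 ± 0.65, adjusted p = 0.517).

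Timp2 (chromosome 11, 118301069 to 118355740) was the most abundant of the 4 inhibitors per kilobase in WT FAPs. In muscle it stood at 37.7, 59.6, 70.8 and 57.2 CPM in WT.16Weeks and 114, 100.3, 88.5 and 128 CPM in IDUX.16Weeks, without overlap (0.93 ± 0.20, adjusted p = 0.00319). At 2 weeks the groups overlapped, at 67.4 to 109 CPM in WT.2Weeks and 56.5 to 97.1 CPM in IDUX.2Weeks (-0.15 ± 0.18, adjusted p = 0.62). CD31WT held 721, 662 and 469 CPM and CD31DUX 1367, 1360.1, 1460.5 and 1428 CPM (1.19 ± 0.17, adjusted p = 0.000322). The lowest CD31DUX library was above the highest CD31WT library. In FAPs the values were 4128, 3518 and 2624 CPM in PDGWT and 3393, 3154, 3069.5 and 2783 CPM in PDGDUX, which overlapped (-0.14 ± 0.16, adjusted p = 0.764). The CD31DUX to CD31WT ratio was 2.27 for Timp2, beside 2.10 for the FAP marker sum. CD31DUX held 45.3% of the PDGDUX level of Timp2 and 21.6% of that of the marker sum.

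Timp3, the matrix-bound inhibitor that also blocks Adam17, was not called by edgeR in a DUX4 comparison. Its muscle levels were 102 to 224 CPM in WT.2Weeks and 101 to 175 CPM in IDUX.2Weeks (-0.24 ± 0.25, adjusted p = 0.562), and 62.2 to 170.4 CPM in WT.16Weeks and 99.3 to 146 CPM in IDUX.16Weeks (-0.09 ± 0.28, adjusted p = 0.839). CD31WT held 1979.5, 2184 and 2430.1 CPM and CD31DUX 2562, 2138, 1844 and 2205 CPM, which overlapped (-0.01 ± 0.19, adjusted p = 0.992). In FAPs the levels were 1706, 1350.0 and 1048 CPM in PDGWT and 1170.5, 974, 674 and 805 CPM in PDGDUX (-0.59 ± 0.19, adjusted p = 0.114). Of the PDGDUX libraries 3 lay below all PDGWT libraries. Without PDGDUX replicate 1, the highest of them, Timp3 was called lower (-0.74, adjusted p = 0.0431), and limma voom called it lower with all libraries (-0.63, adjusted p = 0.0493).

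Timp4 (chromosome 6, 115241892 to 115252205), an inhibitor with a narrow tissue range, was far higher in CD31-sorted cells than in FAPs. CD31WT held 783, 839.7 and 865 CPM and CD31DUX 314, 313, 171 and 395 CPM. All DUX4 libraries were below all WT libraries, with a difference of -1.47 ± 0.35 (adjusted p = 0.0256). In FAPs, where the gene was low, PDGWT held 9.71, 9.75 and 19.0 CPM and PDGDUX 3.78, 3.74, 1.33 and 6.68 CPM (-1.72 ± 0.40, adjusted p = 0.034), again without overlap. The CD31 call was lost without CD31DUX replicate 1, CD31DUX replicate 2, CD31DUX replicate 3, CD31WT replicate 1, CD31WT replicate 2 or CD31WT replicate 3 (adjusted p = 0.0643, 0.0701, 0.0702, 0.0594, 0.0702 and 0.11). The FAP call was lost when any of 9 of 14 libraries was left out (adjusted p = 0.0532 to 0.137) and with limma voom (adjusted p = 0.2). The PDGWT level of Timp4 was 1.55% of its CD31WT level, beside 3.60% for Pecam1. In muscle the libraries were uneven at 2 weeks, 12.7, 40.7, 15.8, 41.9 and 59.5 CPM in WT.2Weeks and 9.68, 19.8, 12.9, 56.4 and 16.9 CPM in IDUX.2Weeks, and at 16 weeks they stood at 7.62, 30.4, 33.2 and 43.2 and 16.1, 27.4, 21.4 and 14.6 CPM. The groups overlapped at both times (-0.56 ± 0.52, adjusted p = 0.506 and -0.53 ± 0.59, adjusted p = 0.543).

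Summed per kilobase, Timp RNA exceeded Mmp RNA in most groups, and the ratio of the 2 sums differed between the groups. It was 4.52 to 6.72 in CD31WT and 1.48 to 2.05 in CD31DUX, and 0.976 to 1.24 in PDGWT and 0.578 to 0.771 in PDGDUX. In muscle it was 2.06 to 2.58 in WT.16Weeks and 1.08 to 1.84 in IDUX.16Weeks, and it overlapped at 2 weeks (1.14 to 2.69 in WT.2Weeks and 1.18 to 2.04 in IDUX.2Weeks). The ranges of DUX4 and WT were apart at 16 weeks and in both sorts. The Mmp sum was 111 ± 23.2 CPM per kilobase in CD31WT (SD, n = 3), 449.6 ± 63.4 in CD31DUX (n = 4), 1054 ± 66.0 in PDGWT (n = 3) and 1697 ± 199.6 in PDGDUX (n = 4). These sums describe RNA, not enzyme or inhibitor activity, and they carry no test because the genes were chosen with results of these data known.

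**Figure D4:**
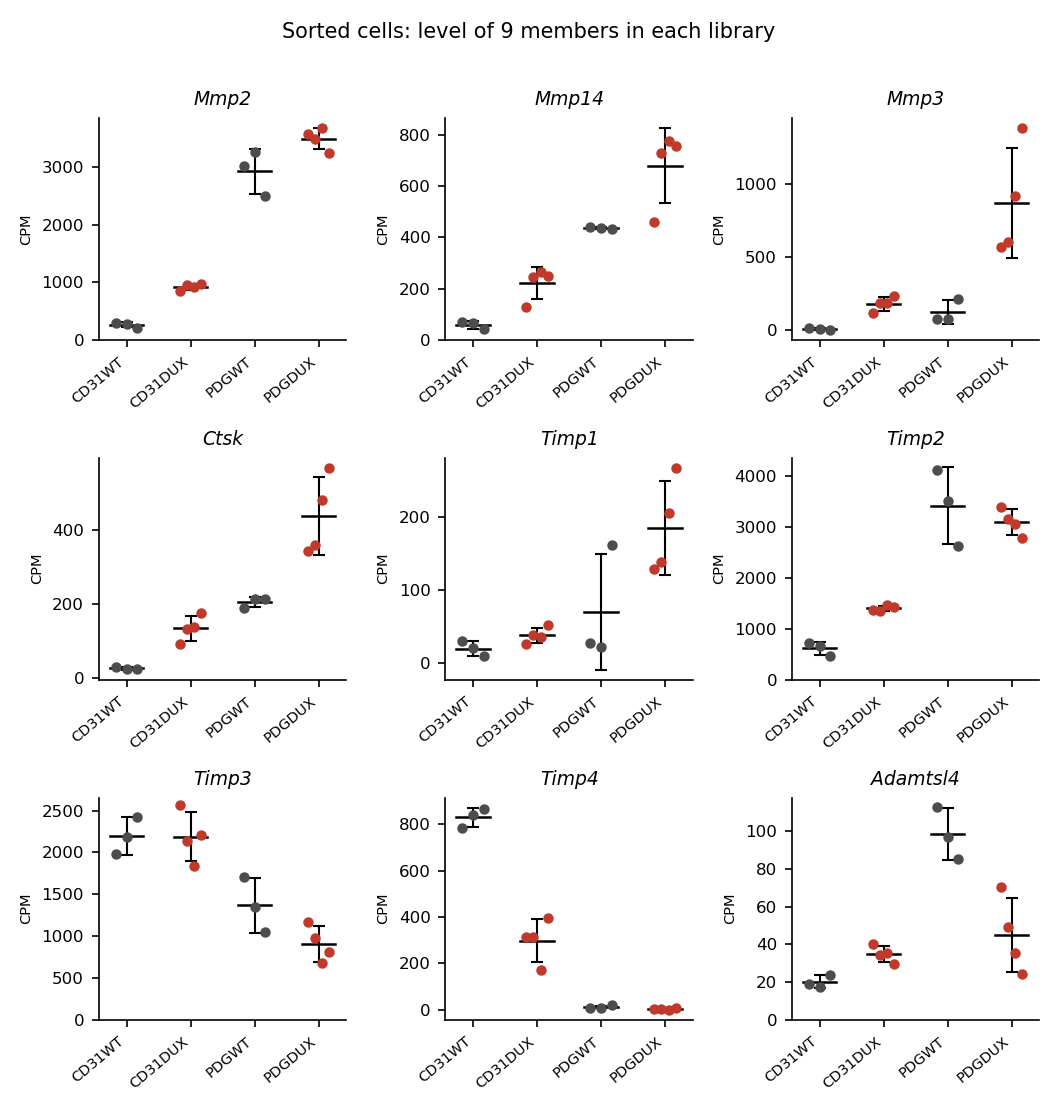
Level in CPM of 9 members in each of the 14 sorted-cell libraries by group, grey for WT and red for DUX4; points are libraries, horizontal bars are means and vertical bars are SD. Mmp2, Mmp14 and Ctsk step up from CD31WT to CD31DUX and are higher again in FAPs. Mmp3 steps up with DUX4 in both sorts and is highest in PDGDUX, while PDGWT overlaps CD31DUX. Timp4 steps down from CD31WT to CD31DUX and is near 0 in FAPs.

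Ctsk (cathepsin K, chromosome 3, 95499256 to 95509362), the lysosomal collagenase best known from osteoclasts and also made by fibroblasts, was called higher in muscle at 16 weeks and in both sorted cell types. At 16 weeks it stood at 1.63, 1.79, 1.81 and 1.35 CPM in WT.16Weeks and 6.41, 3.35, 17.5 and 34.1 CPM in IDUX.16Weeks. The DUX4 libraries were all above the WT libraries and spread widely among themselves (3.21 ± 0.54, adjusted p = 0.00052). At 2 weeks the groups overlapped, at 8.66, 6.07, 4.78, 3.25 and 3.21 CPM in WT.2Weeks and 7.72, 6.91, 6.28, 7.58 and 6.01 CPM in IDUX.2Weeks (0.41 ± 0.44, adjusted p = 0.571). CD31WT held 29.8, 23.3 and 24.2 CPM and CD31DUX 91.3, 131, 138 and 175 CPM (2.38 ± 0.22, adjusted p = 8.24e-06), and PDGWT held 188, 214 and 212 CPM and PDGDUX 344, 359, 479.9 and 568 CPM (1.10 ± 0.21, adjusted p = 0.00813). No groups overlapped in the sorted cells, and none of the alternative fits lost these 3 calls.

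The 6 osteoclast markers summed to 9.27 to 17.8 CPM in PDGWT and 18.4 to 47.1 CPM in PDGDUX, to 3.78 to 15.6 and 17.2 to 36.3 CPM in CD31WT and CD31DUX, and to 2.87 to 6.97 and 6.25 to 22.9 CPM in WT.16Weeks and IDUX.16Weeks. In IDUX.16Weeks the sums were 8.19, 6.25, 15.1 and 22.9 CPM beside 6.41, 3.35, 17.5 and 34.1 CPM of Ctsk, so that the same 2 libraries were highest in both. At 2 weeks the sums overlapped, at 2.43 to 16.3 CPM in WT.2Weeks and 3.95 to 19.0 CPM in IDUX.2Weeks. Dcstamp, which fuses osteoclast precursors, was at 0 in CD31WT and PDGWT and was called higher with DUX4 in all 4 comparisons. It is only 1 of the 6 markers, and the calls of the others are not given here. Whether osteoclasts were present, and their part in the Ctsk levels, was not tested. The ratio of CD31DUX to CD31WT was 5.19 for Ctsk, 3.76 for Mmp14, 3.55 for Mmp2 and 3.28 for Pdgfra, beside 2.10 for the FAP marker sum.

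**Figure D5:**
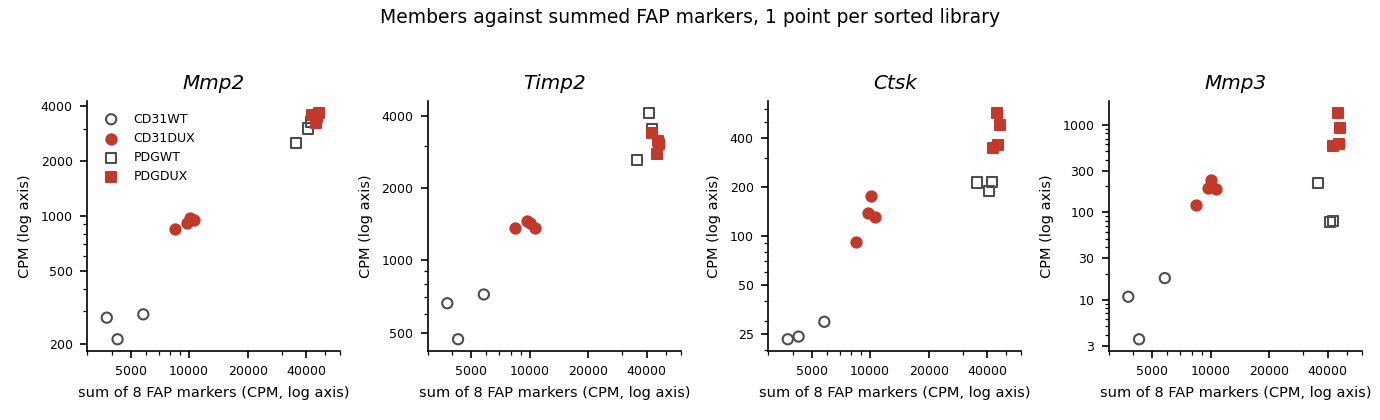
Level of Mmp2, Timp2, Ctsk and Mmp3 (vertical, CPM, log axis) against the summed level of 8 FAP markers (horizontal, CPM, log axis), 1 point per sorted library, open for WT and filled for DUX4, circles for CD31 and squares for PDGFRa. The CD31DUX libraries lie to the right of and above the CD31WT libraries in all 4 panels, and the PDGDUX libraries lie above the PDGWT libraries for Ctsk and Mmp3.

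Of the 12 Adam genes expressed outside the testis, edgeR called 1 lower in muscle at 2 weeks (8.33%, against 6.47% of all genes), 3 higher at 16 weeks (25%, against 14.1%), 4 of 11 tested higher in CD31-sorted cells (36.4%, against 3.72%) and none in FAPs, where 1 had an unadjusted p under 0.05 and DESeq2 and limma voom both called Adam23 higher. Adam17, the enzyme that releases tumour necrosis factor and ligands of the epidermal growth factor receptor, stood at 18.3, 23.6, 25.3 and 27.9 CPM in WT.16Weeks and 38.9, 31.0, 31.3 and 35.9 CPM in IDUX.16Weeks. All DUX4 libraries were above all WT libraries, by a small margin (0.53 ± 0.13, adjusted p = 0.00805). Its differences at 2 weeks, in CD31-sorted cells and in FAPs were -0.09 ± 0.12 (adjusted p = 0.658), 0.35 ± 0.16 (adjusted p = 0.247) and 0.26 ± 0.16 (adjusted p = 0.496). The levels were 28.5 to 35.2 and 25.1 to 35.2 CPM in WT.2Weeks and IDUX.2Weeks, 56.5 to 72.9 and 75.9 to 91.0 CPM in CD31WT and CD31DUX, and 71.1 to 109 and 98.8 to 124 CPM in PDGWT and PDGDUX.

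Adam19 (meltrin beta), a sheddase of neuregulins, rose in muscle at 16 weeks and in CD31-sorted cells. It stood at 2.54, 6.68, 5.49 and 3.53 CPM in WT.16Weeks and 27.2, 13.7, 11.8 and 18.5 CPM in IDUX.16Weeks (1.96 ± 0.40, adjusted p = 0.00217), and at 4.25, 4.48 and 3.31 CPM in CD31WT and 12.0, 15.3, 16.4 and 8.01 CPM in CD31DUX (1.69 ± 0.34, adjusted p = 0.00668). Neither pair of groups overlapped, and limma voom did not call Adam19 in CD31-sorted cells (adjusted p = 0.0856). Adam23, a member without protease activity, rose at 16 weeks from 0.391, 1.32, 1.87 and 0.673 CPM in WT.16Weeks to 3.20, 3.05, 2.22 and 4 CPM in IDUX.16Weeks (1.51 ± 0.42, adjusted p = 0.0145). In CD31-sorted cells it rose from 2.75, 7.05 and 3.61 to 8.24, 7.54, 9.76 and 10.7 CPM (1.02 ± 0.28, adjusted p = 0.0429), without overlap, but that call was lost when any of 13 of 14 libraries was left out (adjusted p = 0.0512 to 0.18). The call was also lost with limma voom (adjusted p = 0.109). In FAPs Adam23 stood at 17.8, 17.6 and 17.5 CPM in PDGWT and 33.6, 38.3, 30.2 and 31.2 CPM in PDGDUX, without overlap, and did not pass edgeR's test (0.92 ± 0.27, adjusted p = 0.0836). Adam22, likewise without protease activity, fell at 2 weeks from 2.70, 5.64, 3.31, 7.10 and 4.62 CPM in WT.2Weeks to 1.57, 1.97, 2.67, 3.64 and 1.87 CPM in IDUX.2Weeks, with overlap (-1.0 ± 0.33, adjusted p = 0.0465). The Adam22 call was lost when any of 14 of 18 libraries was left out (adjusted p = 0.0514 to 0.14).

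In CD31-sorted cells Adam33 and Adam9 also rose. Adam33, a gene of mesenchymal cells, stood at 2.23, 4.81 and 1.89 CPM in CD31WT and 6.70, 14.9, 13.2 and 9.23 CPM in CD31DUX (1.88 ± 0.37, adjusted p = 0.00558). Adam9 stood at 57.1, 61.1 and 37.6 CPM in CD31WT and 102, 97.4, 103 and 97.7 CPM in CD31DUX (0.95 ± 0.22, adjusted p = 0.0161). Neither gene's groups overlapped, and the Adam9 call was lost without CD31WT replicate 3 (adjusted p = 0.0929). Adam10, which cuts Notch and its ligands, was higher in endothelial cells than in FAPs and was not called with DUX4. It stood at 102, 107 and 62.5 CPM in CD31WT and 118, 108, 143 and 135 CPM in CD31DUX (0.48 ± 0.18, adjusted p = 0.146), and at 32.7 to 44.3 CPM in PDGWT and 42.8 to 46.5 CPM in PDGDUX (0.24 ± 0.18, adjusted p = 0.608). The CD31DUX libraries were above the CD31WT libraries without passing the test. In muscle it kept to 28.3 to 36.5 and 30.4 to 37.9 CPM at 2 weeks (0.05 ± 0.11, adjusted p = 0.803) and 25.7 to 37.5 and 25.5 to 33.0 CPM at 16 weeks (-0.10 ± 0.12, adjusted p = 0.575). Adam12 (meltrin alpha), a gene of regenerating muscle, was low and uneven. It stood at 1.72, 8.35, 4.13, 0.473 and 1.41 CPM in WT.2Weeks and 2.55, 2.8, 7.81, 1.62 and 1.11 CPM in IDUX.2Weeks (0.00 ± 0.64, adjusted p = 0.998), and at 0.521, 0.311, 0.283 and 0.336 CPM in WT.16Weeks and 2.97, 0.610, 0.572 and 1.25 CPM in IDUX.16Weeks (1.91 ± 0.86, adjusted p = 0.11). The 16-week groups did not overlap, but the difference did not pass the test. In sorted cells Adam12 ranged over 2.13 to 4.48 CPM in CD31WT, 4.62 to 8.84 CPM in CD31DUX, 4.84 to 7.11 CPM in PDGWT and 2.56 to 11.9 CPM in PDGDUX (1.03 ± 0.48, adjusted p = 0.273 and 0.18 ± 0.47, adjusted p = 0.925).

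Among the Adamts genes, Adamts17 rose in muscle at both times and Adamts20 at 16 weeks. Adamts17, which is linked to short stature and eye disease when mutated, stood at 1.39, 0.325, 0.367, 0.271 and 0.754 CPM in WT.2Weeks and 1.37, 4.05, 1.21, 1.24 and 2.83 CPM in IDUX.2Weeks. Those groups overlapped through 1 WT library (1.77 ± 0.45, adjusted p = 0.0118). The call was lost with replicates 1 to 3 alone (1.61, adjusted p = 0.145) and with replicates 4 and 5 alone (2.02, adjusted p = 0.264). At 16 weeks it stood at 0.130, 0.233, 0.227 and 0.168 CPM in WT.16Weeks and 1.08, 1.22, 1.14 and 1.51 CPM in IDUX.16Weeks, without overlap (2.64 ± 0.58, adjusted p = 0.00327). In FAPs the levels were 0.247, 0.542 and 1.04 CPM in PDGWT and 2.49, 4.60, 4.08 and 3.34 CPM in PDGDUX, again without overlap, but the difference of 2.55 ± 0.75 (adjusted p = 0.0849) did not pass the test. DESeq2 and limma voom both called Adamts17 higher in FAPs.

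Adamts20, a versican-cutting protease, was the 1 member whose DUX4 effect differed between the times, against 0.188% of all genes in this direction and 0.110% in the other. It stood at 23.0, 14.5, 18.9, 11.4 and 14.5 CPM in WT.2Weeks and 8.44, 12.5, 12.9, 14.2 and 9.05 CPM in IDUX.2Weeks, which overlapped (-0.53 ± 0.23, adjusted p = 0.119). At 16 weeks it stood at 4.36, 3.18, 6.46 and 3.53 CPM in WT.16Weeks and 18.2, 12.7, 10.2 and 14.9 CPM in IDUX.16Weeks, without overlap (1.66 ± 0.27, adjusted p = 0.000361). All WT.16Weeks libraries lay below all WT.2Weeks libraries, and the DUX4 libraries of the 2 times overlapped. The 16-week effect exceeded the 2-week effect by 2.19 ± 0.35 (adjusted p = 0.0188). No member had a lower effect at 16 weeks, either by the adjusted test, at an unadjusted p under 0.05, or by DESeq2 or limma voom. For Mmp3, Ctsk and Timp2, called at 16 weeks and not at 2 weeks, the differences between the times were 3.66 ± 0.91 (adjusted p = 0.092), 2.8 ± 0.69 (adjusted p = 0.089) and 1.08 ± 0.27 (adjusted p = 0.0926), so that the effects were not shown to differ by this test. DESeq2 called 6 members in it, those 3 and Mmp2, Adam17 and Adamts20.

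The proteoglycanases Adamts1 and Adamts4 were prominent in the sorted cells. Adamts1 averaged 2618 ± 436 (SD, n = 3) CPM in CD31WT, 2237 ± 449.8 (SD, n = 3) CPM in PDGWT and 30.9 ± 4.74 (SD, n = 4) CPM in WT.16Weeks muscle, and Adamts4 averaged 1236 ± 434 (SD, n = 3), 660.2 ± 92.3 (SD, n = 3) and 1.38 ± 2.43 (SD, n = 4) CPM in the same order. Muscle and sorted libraries differ in dissociation, sorting and kit, and their part in this contrast was not tested. Adamts4 rose in FAPs from 762, 635 and 583 CPM in PDGWT to 1108, 1308, 1248 and 1258 CPM in PDGDUX, without overlap (0.90 ± 0.18, adjusted p = 0.0124). That call was lost without PDGWT replicate 2 or PDGWT replicate 3 (adjusted p = 0.0581 and 0.0625). Adamts1 was not called by edgeR, at 2696, 2218 and 1797 CPM in PDGWT and 2231, 2762, 3058 and 2571 CPM in PDGDUX (0.25 ± 0.16, adjusted p = 0.523) and at 2571, 3075 and 2208 CPM in CD31WT and 2854, 2590.1, 2355 and 2773 CPM in CD31DUX (0.01 ± 0.16, adjusted p = 0.977). In muscle the Adamts1 ranges were 21.6 to 35.6 and 29.3 to 64.8 CPM at 2 weeks (0.59 ± 0.22, adjusted p = 0.076, called higher by limma voom, 0.55, adjusted p = 0.0467) and 24.2 to 34.5 and 20.9 to 35.2 CPM at 16 weeks (-0.06 ± 0.25, adjusted p = 0.883). The groups overlapped in all 4 comparisons.

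Adamts5, the main aggrecanase of mouse cartilage, was a FAP gene here and was not called by edgeR with DUX4. PDGWT held 134, 138 and 153 CPM and PDGDUX 118, 121, 146 and 113 CPM (-0.18 ± 0.23, adjusted p = 0.791), and CD31WT held 16.9, 17.7 and 26.9 CPM and CD31DUX 21.2, 33.1, 41.6 and 19.8 CPM (0.50 ± 0.24, adjusted p = 0.286). In muscle it ranged over 16.1 to 23.0 and 11.6 to 16.2 CPM at 2 weeks (-0.48 ± 0.24, adjusted p = 0.182) and 3.97 to 15 and 13.2 to 18.6 CPM at 16 weeks (0.62 ± 0.27, adjusted p = 0.102). At 2 weeks Adamts5 was called lower by limma voom (-0.49, adjusted p = 0.0278), with only the groups compared (-0.48, adjusted p = 0.0246), with replicates 1 to 3 alone (-0.59, adjusted p = 0.0398) and without WT.16Weeks replicate 1 (-0.48, adjusted p = 0.0171). Without WT.16Weeks replicate 2 the 16-week difference was called (0.82, adjusted p = 0.0478). Adamts2, which removes the N-propeptide of fibrillar procollagens, rose in CD31-sorted cells from 50.0, 44.5 and 30.2 CPM in CD31WT to 103, 107, 110.4 and 112 CPM in CD31DUX (1.38 ± 0.16, adjusted p = 7.57e-05). No fit lost that call. FAPs held 403, 461 and 359.7 CPM in PDGWT and 504, 459, 389.7 and 396 CPM in PDGDUX (0.10 ± 0.16, adjusted p = 0.842). The ratio of CD31DUX to CD31WT was 2.60 for Adamts2. In muscle Adamts2 was not called at 2 weeks (-0.43 ± 0.29, adjusted p = 0.324) or 16 weeks (0.37 ± 0.33, adjusted p = 0.431). With replicates 1 to 3 alone it was called lower at 2 weeks (-0.67, adjusted p = 0.0221). Its means in WT.2Weeks and IDUX.2Weeks were 30.4 and 19.2 CPM in replicates 1 to 3. In replicates 4 and 5 they were 12.55 and 14.1 CPM. Adamts12 rose in CD31-sorted cells from 1.5, 1.40 and 0.532 CPM in CD31WT to 4.83, 11.1, 7.55 and 3.14 CPM in CD31DUX, without overlap (2.52 ± 0.43, adjusted p = 0.00163), and limma voom did not call it (adjusted p = 0.112).

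Adamts8 split the 2-week libraries by set. WT.2Weeks stood at 1.47, 1.63, 0.735, 37.5 and 45.3 CPM and IDUX.2Weeks at 0.850, 0.477, 0.635, 20.4 and 7.46 CPM, low in replicates 1 to 3 and high in replicates 4 and 5 of both genotypes. The difference was -1.56 ± 1.10 (adjusted p = 0.367). Adamts7 was above all WT libraries in all 5 IDUX.2Weeks libraries (2.45, 1.30, 2.48, 1.49 and 2.26 CPM in WT.2Weeks and 4.38, 2.8, 4.76, 4.02 and 3.11 CPM in IDUX.2Weeks) and did not pass the test (0.93 ± 0.34, adjusted p = 0.0717), while DESeq2 and limma voom called it higher. Both were chosen after their values were seen.

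The Adamts-like genes, whose products sit in the matrix and bind fibrillin microfibrils, were mostly FAP genes. Adamtsl4 fell in FAPs from 113, 97.1 and 85.3 CPM in PDGWT to 70.2, 49.2, 35.6 and 24.2 CPM in PDGDUX, without overlap (-1.14 ± 0.26, adjusted p = 0.0262), a call that was lost without PDGDUX replicate 3, PDGWT replicate 1 or PDGWT replicate 2 (adjusted p = 0.0779, 0.108 and 0.0701). Adamtsl2 showed lower levels there too, 138, 169.8 and 74.8 CPM in PDGWT and 40.3, 67.6, 36.8 and 24.2 CPM in PDGDUX, but did not pass the test (-1.60 ± 0.47, adjusted p = 0.0991); DESeq2 (adjusted p = 0.0139) and limma voom (adjusted p = 0.00916) called it lower. In the other comparisons Adamtsl2 was not called. It ranged over 1.62 to 3.03 CPM in WT.2Weeks and 0.720 to 3.71 CPM in IDUX.2Weeks (-0.54 ± 0.45, adjusted p = 0.46), 1.01 to 3.32 CPM in WT.16Weeks and 0.445 to 1.46 CPM in IDUX.16Weeks (-0.93 ± 0.52, adjusted p = 0.201), and 5.24 to 18 CPM in CD31WT and 6.98 to 20.3 CPM in CD31DUX (-0.05 ± 0.49, adjusted p = 0.973). Adamtsl1 rose in CD31-sorted cells from 29.8, 20.0 and 32.6 CPM in CD31WT to 44.7, 56.1, 45.9 and 47.3 CPM in CD31DUX (0.82 ± 0.19, adjusted p = 0.0186). It fell in muscle at 2 weeks from 10.6, 17.4, 8.82, 3.31 and 4.15 CPM in WT.2Weeks to 3.01, 3.16, 5.97, 4.87 and 2.07 CPM in IDUX.2Weeks, with overlap (-1.21 ± 0.40, adjusted p = 0.0455). The muscle call was lost when any of 12 of 18 libraries was left out (adjusted p = 0.0509 to 0.152). It was also lost with replicates 4 and 5 alone (-0.13, adjusted p = 0.917). The means of these 2 replicates were 3.73 CPM in WT.2Weeks and 3.47 CPM in IDUX.2Weeks, so that the fall lay in replicates 1 to 3 (12.3 and 4.04 CPM).

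In the sorted WT cells most called members were FAP genes. Of the 60 tested, 28 were higher in PDGWT than in CD31WT and 7 lower (46.7% and 11.7%), against 16.7% and 14.5% of all genes, and the median log2 difference of FAPs minus endothelial cells was 1.48 for the members and -0.02 for all genes. The largest differences towards FAPs, among members at 5 CPM or more, were those of Mmp27 (4.41 ± 1.54), Adamts12 (4.18 ± 0.46), Adamts14 (3.91 ± 0.61), Mmp3 (3.54 ± 0.61), Adamtsl2 (3.53 ± 0.56), Mmp2 (3.49 ± 0.15), Adam33 (3.45 ± 0.40), Adamts2 (3.29 ± 0.18), Adamtsl1 (3.0 ± 0.21) and Ctsk (2.99 ± 0.23), each with its SE. The 7 towards endothelial cells were Timp4 (-6.01 ± 0.47), Mmp15 (-4.68 ± 0.80), Adam15 (-2.19 ± 0.18), Adamts9 (-1.70 ± 0.31), Adam10 (-1.26 ± 0.19), Adamts4 (-0.90 ± 0.19) and Timp3 (-0.68 ± 0.20). Their adjusted p-values ran from 2.22e-07 for Timp4 to 0.0167 for Timp3. Adam15, a metalloprotease with an integrin-binding motif, averaged 421 ± 90.3 (SD, n = 3) CPM in CD31WT and 91.9 ± 7.19 (SD, n = 3) CPM in PDGWT. Adamts9, another versican-cutting protease, averaged 131 ± 1.42 and 40.3 ± 14.8 CPM. The Mmp27 call was lost without CD31DUX replicate 2, CD31WT replicate 2, CD31WT replicate 3, PDGWT replicate 1 or PDGWT replicate 2 (adjusted p = 0.0516, 0.102, 0.106, 0.127 and 0.0637), and the Timp3 call was lost without PDGWT replicate 2 or PDGWT replicate 3 (adjusted p = 0.0535 and 0.0849). This comparison and the CD31 comparison of DUX4 with WT share the CD31WT libraries, so that their values are given side by side and not correlated.

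The DUX4 effect differed between the 2 sorted cell types for 8 members, each lower in FAPs than in endothelial cells (13.3% of 60), against 1.70% of all genes, and for none in the other direction, against 0.553%. In that direction 3 members had an unadjusted p under 0.05, and DESeq2 and limma voom each called 1, Adamts17. The 8 were Adam33 (-2.41 ± 0.50, adjusted p = 0.0164), Adamtsl4 (-1.93 ± 0.38, adjusted p = 0.0121), Adam19 (-1.85 ± 0.46, adjusted p = 0.0455), Mmp2 (-1.57 ± 0.18, adjusted p = 0.000375), Timp2 (-1.33 ± 0.23, adjusted p = 0.00488), Ctsk (-1.28 ± 0.29, adjusted p = 0.0288), Adamts2 (-1.28 ± 0.22, adjusted p = 0.00567) and Adamtsl1 (-1.25 ± 0.26, adjusted p = 0.0194). Of these, 7 were among the members called higher with DUX4 in CD31-sorted cells, and Adamtsl4 was called lower in FAPs and stood higher in all CD31DUX libraries (40.2, 34.2, 35.2 and 29.5 CPM) than in CD31WT (18.9, 17.5 and 23.9 CPM). The interaction shares its libraries with the single comparisons and is not independent of them. The Adam19 call was lost when any of 11 of 14 libraries was left out (adjusted p = 0.0535 to 0.119), and the Ctsk call when any of 8 of 14 libraries was left out (adjusted p = 0.0524 to 0.0827). Limma voom did not call Adam19 in this test (adjusted p = 0.143). The Adam33 call was lost without CD31WT replicate 3 (adjusted p = 0.052), and the Adamtsl1 call without PDGWT replicate 1 (adjusted p = 0.0515).

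Other genes of the same biology were read from 5 lists. Their counts stand beside the shares of all genes called higher and lower, which were 11.2% and 6.47% at 2 weeks, 14.1% and 12.5% at 16 weeks, 3.72% and 1.35% in CD31-sorted cells and 1.23% and 1.77% in FAPs. Among 13 cathepsins and cystatins, which are lysosomal proteases and their inhibitors, 1 was called higher at 2 weeks (7.69%, below the share of all genes, Cstb, 1.12, adjusted p = 0.0491), none at 16 weeks, 2 in CD31-sorted cells (Ctsb, 1.03, adjusted p = 0.00025, and Ctsf, 0.55, adjusted p = 0.0268) and 1 in FAPs, Cst3, which encodes the cysteine protease inhibitor cystatin C (3778 against 1656 CPM in PDGDUX and PDGWT, 1.19, adjusted p = 0.000378). No gene of that list was called lower with DUX4, where 1 had an unadjusted p under 0.05 (at 16 weeks). These 5 lists were tested with edgeR alone. Of the plasminogen system, 8 of 10 genes were tested in muscle. Serpine2, an inhibitor of plasminogen activators and thrombin, fell at 2 weeks (-1.26, adjusted p = 0.00267) and at 16 weeks (-0.86, adjusted p = 0.0337), and Serpinf1 rose at 16 weeks (1.53, adjusted p = 0.0116). In CD31-sorted cells Serping1 (1.32, adjusted p = 3.11e-05) and Serpinf1 (1.28, adjusted p = 3.67e-05) rose, and in FAPs none of the 10 was called (1 higher and 0 lower at an unadjusted p under 0.05).

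Of 18 astacins, procollagen-processing enzymes and genes that control Mmps, 17 were tested in muscle. At 2 weeks 3 fell (17.6% of 17, Ece1, -0.62, adjusted p = 0.0186, Htra1, -0.90, adjusted p = 0.0236, and Bsg, which encodes the Mmp inducer basigin, -0.48, adjusted p = 0.024). At 16 weeks 3 rose and 3 fell (17.6% each), near the shares of all genes, among them Pcsk5, a proprotein convertase (1.69, adjusted p = 0.00413), and its relative Furin, which activates the precursors of membrane-type Mmps (-0.58, adjusted p = 0.00269). In CD31-sorted cells 6 of 18 rose (33.3%, against 3.72% of all genes), led by Pcolce, the enhancer of procollagen C-proteinase (368 against 131 CPM in CD31DUX and CD31WT, 1.49, adjusted p = 6.43e-06), Htra3 (1.5, adjusted p = 0.000259) and Pcsk6 (2.23, adjusted p = 0.000641), and in FAPs none was called (0 higher and 5 lower at an unadjusted p under 0.05). For Pcolce, Pcsk6 and Htra3 the effect in FAPs was lower than in endothelial cells (-1.52, adjusted p = 0.000375, -3.05, adjusted p = 0.00187 and -1.54, adjusted p = 0.00714).

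Adam10 and Adam17 act with partner proteins on membrane-bound ligands and receptors. Of 20 of these genes tested in muscle, 4 rose and 2 fell at 2 weeks (20% and 10%, against 11.2% and 6.47% of all genes), and 7 rose and 1 fell at 16 weeks (35.0% and 5.0%, against 14.1% and 12.5%). Areg, a ligand of the epidermal growth factor receptor, was without a count in all 5 WT.2Weeks libraries and averaged 10.2 ± 8.30 CPM (SD, n = 5) in IDUX.2Weeks (adjusted p = 5.26e-05). At 16 weeks it averaged 6.55 CPM in IDUX.16Weeks and 0.0142 CPM in WT.16Weeks (adjusted p = 0.000289). Tspan5, a tetraspanin that steers Adam10, rose at both times (1.13, adjusted p = 0.00427, and 1.57, adjusted p = 0.0007), and so did the ligand gene Epgn (3.46, adjusted p = 0.00443 at 2 weeks). The membrane-bound chemokine gene Cx3cl1 rose at 2 weeks, at 16 weeks (3.19, adjusted p = 0.00106) and in FAPs (129 against 30.9 CPM in PDGDUX and PDGWT, 2.06, adjusted p = 4.8e-05), and its relative Cxcl16 rose in FAPs (1.52, adjusted p = 0.00219). Tgfa fell in FAPs (0.236 against 4 CPM, -3.95, adjusted p = 0.0112), where 3 of the 21 tested rose and 1 fell, and in CD31-sorted cells 1 of 21 rose (Ereg, 3.28, adjusted p = 0.0302). The contrast in counts between muscle and sorted cells was not tested.

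Of 12 tested proteoglycan and matrix substrates, 2 rose and 1 fell at 2 weeks (16.7% and 8.33%, near the shares of all genes), 5 rose and 1 fell at 16 weeks (41.7% and 8.33%, against 14.1% and 12.5% of all genes), 2 rose in CD31-sorted cells (16.7%, against 3.72%) and none was called in FAPs, where 2 higher and 3 lower had an unadjusted p under 0.05. Ltbp1, which holds latent transforming growth factor beta in the matrix, rose at 2 weeks (1.10, adjusted p = 0.00551) and at 16 weeks (56.7 against 15.3 CPM in IDUX.16Weeks and WT.16Weeks, 1.88, adjusted p = 0.000208), and its relative Ltbp3 fell at 2 weeks (-0.39, adjusted p = 0.0494). Bcan, the gene of a brain proteoglycan cut by Adamts4, was low and rose at both times, from no count in WT.2Weeks to 0.920 CPM in IDUX.2Weeks (adjusted p = 0.000345) and from 0.0530 CPM in WT.16Weeks to 0.975 CPM in IDUX.16Weeks (adjusted p = 0.0026). Fbn2, a fibrillin gene of developing tissue, rose at 16 weeks (2.84, adjusted p = 0.00291). In CD31-sorted cells Ltbp3 (1.46, adjusted p = 0.000108) and Fbn1 (1.17, adjusted p = 0.000708) rose, beside the higher FAP marker sum in the same libraries.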

How the data were processed

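The tables hold expected counts per Ensembl gene, deposited by the authors with 1 column per library. Per the submitters' processing notes they were made with Salmon 0.6.0 and CASAVA 1.8 with the mm10 build. Which annotation release was used, and how transcripts were summed per gene, is not given in the sources used here. Per the labels' protocols, whole-muscle libraries were made from 500 ng RNA and sorted-cell libraries from 75000 cells, with different kits.

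Expected counts were rounded to whole numbers. Symbols, positions and exon lengths came from GENCODE vM21 (GRCm38), and promoters from RefSeq (GRCm38.p6). The 18 whole-muscle and the 14 sorted-cell libraries were fitted separately with edgeR 4.0.16 (R 4.3.3): filterByExpr with a minimum count of 10, TMM scaling, robust quasi-likelihood test and Benjamini-Hochberg adjustment over all genes tested (15396 and 17008). Genes were called at an adjusted p under 0.05. Levels are CPM after TMM scaling. The fit was also run on simulated counts, and the outcome is not given here. Groups follow the labels, and replicates were numbered in accession order. Alternatives were DESeq2 1.42.0, limma 3.58.1 voom with quality weights, other scaling and filters, the compared groups alone, a set term in the model for the 2-week libraries, and leaving out libraries.

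All members called with DUX4 are named, as are 17 key members whether called or not. From the WT cell types up to 10 called members per direction at 5 CPM or more in the higher group are named, and from each of the 5 lists (77 pathway genes) up to 3 called genes per comparison. The members, the lists and the 13 marker lists were chosen with earlier results of these data known. The result of 1 gene of the plasminogen list is not reported here.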

Additional observations from a re-analysis of the deposited data

Results flagged for a closer look

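For the 17 key members, each group of 4 or 5 libraries was examined for a library far from the rest by Dixon's criterion. This picked out 10 of 102 cases, where chance gives about 1 in 20 for independent, normally distributed values. These cases share libraries and are not independent. WT.16Weeks replicate 1 was picked out for Timp1 (4.69 CPM against 0.227 to 0.505 in the other libraries of its group), Mmp2 (6.71 against 22.8 to 24.7 CPM) and Mmp15 (20.6 against 34.2 to 36.7 CPM). The same library had the lowest FAP marker sum and the highest macrophage marker sum of its group, and the part of these in its values was not tested.

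Replicate 1 stood low for Mmp14 in both DUX4 sorts, at 129.8 CPM in CD31DUX (others 244 to 263) and 461 CPM in PDGDUX (others 727 to 773). Mmp14 was high in WT.2Weeks replicate 1 (21.9 CPM, others 8.45 to 10.7). Single libraries also stood high for Timp4 in IDUX.2Weeks replicate 4 (56.4 CPM, others 9.68 to 19.8), Adam12 in IDUX.2Weeks replicate 3 (7.81 CPM, others 1.11 to 2.8), Mmp9 in CD31DUX replicate 3 (2.79 CPM, others 1.39 to 1.58) and Adamtsl2 in CD31DUX replicate 2 (20.3 CPM, others 6.98 to 8.37).

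In edgeR's test of a difference between 2 DUX4 effects, Adamts20 had a larger effect at 16 weeks than at 2 weeks (log2 difference 2.19). The effect was lower in FAPs than in endothelial cells for Adam33 (-2.41), Adamtsl4 (-1.93), Adam19 (-1.85), Mmp2 (-1.57), Timp2 (-1.33), Ctsk (-1.28), Adamts2 (-1.28) and Adamtsl1 (-1.25). Of the 8 FAP markers, 4 were also called lower in that test.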

How the results depend on the processing

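The number of members called at 2 weeks was 5 and became 13 with limma voom, 9 with replicates 1 to 3 alone, 0 with replicates 4 and 5 alone, and 2 to 7 when 1 library was left out. For the difference between times it was 1 and became 6 with DESeq2, 2 with limma voom, 3 with a set term for the 2-week libraries, 0 without WT.16Weeks replicates 1 and 4, and 1 to 2 when 1 library was left out. In FAPs it was 5 and became 11 with DESeq2, 13 with limma voom, 3 without a low-count filter, and 2 to 6 when 1 library was left out. For the difference between cell types it was 8, with 12 by DESeq2, 9 by limma voom and 5 to 8 when 1 library was left out. The counts at 16 weeks (15), in CD31-sorted cells (14) and between the WT cell types (35) stayed within 1.5 times under every alternative, with 12 to 17, 10 to 14 and 31 to 37 when 1 library was left out. Of the alternative log2 differences of named members, 163 lost the call and 22 gained it with the direction kept. The other 2781 stayed on their side of the threshold, and 36 of them, none called, changed sign. Why counts moved was not tested. Low depth limits members under about 1 CPM. No paired analysis was possible because replicates were numbered in accession order and the labels pair no libraries. The set term, the removal of WT.16Weeks replicates 1 and 4 and the single sets rest on a split seen in these data.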
